A study of Homo sapiens with 18 samples.

Results

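The 10 genes described here encode the flagellin receptor TLR5 and 9 proteins that carry or assist its signal through the adaptor MyD88. They were taken from an array table of 16111 tested genes by gene symbol: TLR5, MYD88, TIRAP, IRAK1, IRAK2, TRAF6, PELI1, IKBKG, UNC93B1 and MAP3K7. Each had 1 row annotated with that symbol alone, and all 10 passed the filter on low values, which asked for a level above the array's median on at least 3 of 18 arrays. TLR5 sits at the cell surface and binds flagellin, the protein of the bacterial flagellum. It then recruits MyD88, which gathers kinases of the IRAK family. These activate the ubiquitin ligase TRAF6, and through it the kinase TAK1 and the IKK complex, which releases NF-kB to the nucleus. TIRAP is an adaptor that bridges some toll-like receptors, chiefly TLR2 and TLR4, to MyD88, PELI1 a ubiquitin ligase that acts with the IRAK kinases, and UNC93B1 a chaperone that moves several toll-like receptors, TLR5 among them, to where they work.

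Transcript levels were measured on Affymetrix Human Gene 2.1 ST arrays in HEK293, a cell line of human embryonic kidney origin, made to overexpress murine TLR5. Cells received isolated flagellin of the probiotic strain E. coli Nissle (EcN), isolated flagellin of Salmonella Typhimurium SL1344 (ST) or a mock control, and RNA was taken at 60 or 120 min, with 3 arrays lettered A, B and C in each of the 6 groups. The flagellin amount matched a multiplicity of infection of 10. All groups carried the murine TLR5 transgene and grew in heavy, medium or light amino acid media for mass spectrometry, to passage 7. The sources used here do not say which array had which medium, so medium and treatment cannot be told apart, nor whether the transgenic line is 1 clone. The labels call the arrays biological replicates and name no separate cultures, so p-values measure the spread between these arrays, which may be technical. For the 6 ST arrays the description fields name mock, against their titles, sources and treatment fields, and the titles were followed.

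The line carried transcripts typical of HEK293: 6 of its 7 markers (PAX2, NEFL, ENO2, VIM, KRT8 and KRT18) lay over 1 log2 unit above the array median on all 18 arrays, and the neurofilament gene NEFM on 0. Of the leukocyte genes, PTPRC, ITGAM, CD3E and LYZ did not pass the filter, and CD68 lay at 8.89 to 9.46 (log2 level). Markers of other cell types that also lay over 1 log2 unit above the median on all 18 arrays were LGR5, CDX2 and EPCAM of 4 intestinal epithelial genes and COL1A1 and LUM of 5 fibroblast genes. Among the other toll-like receptors TLR1, TLR2, TLR4, TLR6, TLR7, TLR8 and TLR10 did not pass it either, nor did LY96, the TLR4 coreceptor. TLR3, which senses double-stranded RNA, and TLR9, which senses bacterial DNA, were tested. NFKBIA, the NF-kB inhibitor that NF-kB itself induces, split the arrays in a way that went against the labels. It stood between 10.15 and 10.85 (log2 level) on EcN 60 min C, ST 60 min C, EcN 120 min C, ST 120 min C and mock 120 min A, and between 8.09 and 8.82 on the others. Of the other targets of NF-kB, TNFAIP3 split the same arrays (8.20 to 9.60 on these 5, 5.95 to 6.55 on the others), and so did the chemokine gene CXCL8 (5.62 to 8.76, and 2.16 to 2.90). The 8 flagellin arrays lettered A and B were thus not high in these 3 genes, while 1 mock array was. At 60 min EGR1 and the interferon-induced gene ISG15 went with the labels. EGR1 was 10.33 to 11.52 with flagellin and 8.89 to 9.27 in mock, and ISG15 4.22 to 6.62 against 3.17 to 3.79. At 120 min ISG15 was 4.53 to 7.08 with flagellin and 3.94 to 4.28 in mock, with 3.94 on mock 120 min A. EGR1 overlapped then, at 8.81 to 10.01 with flagellin and 9.80 to 10.99 in mock. Whether samples were exchanged or cultures differed in stimulation was not tested. Every flagellin over mock value below takes the labels as given, and its meaning depends on them. Each call of a member is therefore also given without the arrays lettered C and mock 120 min A. That fit also leaves out mock 60 min C and mock 120 min C, whose NFKBIA was low (8.59 and 8.22). It keeps only arrays A and B of each group at 60 min, and only mock B of mock at 120 min. A call lost in it cannot be laid to the arrays with high NFKBIA alone. Leaving out mock 60 min C by itself took the EcN member calls at 60 min from 3 to 0.

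The first question was whether flagellin changed the transcripts of its own signalling chain. With EcN flagellin at 60 min PELI1 rose, while the adaptor TIRAP and IKBKG, the scaffold subunit of the IKK complex also called NEMO, fell. With ST flagellin at 60 min no member passed the test, and neither flagellin gave a call at 120 min. With the mean of both flagellins at 60 min PELI1 and UNC93B1 rose and MYD88, TIRAP and IKBKG fell. All these changes were under 1.6-fold. TLR5 itself, IRAK1, IRAK2, TRAF6 and MAP3K7, which encodes TAK1, passed no test.

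A member was called at an adjusted p under 0.05 in limma, adjusted by the Benjamini-Hochberg method over all 16111 genes. The EcN and ST comparisons share their mock arrays. In bulk RNA, fewer cells with a transcript and less of it per cell cannot be told apart. For EcN over mock at 60 min 1 of 10 members was called higher and 2 lower, where 3.08% of all genes tested were called higher and 3.37% lower. An unadjusted p under 0.05 was found for 6 members and for 24.8% of all genes. The 3 EcN arrays lay wholly above mock for 2 members and wholly below for 4, where 16.7% of all genes lay above and 15.2% below. For both flagellins over mock at 60 min 2 members were called higher and 3 lower, where 4.53% of all genes were higher and 5.75% lower. Here 6 members and 27% of all genes had an unadjusted p under 0.05.

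For ST over mock at 60 min limma called 0 of 10 members and 5.26% of all genes, while 5 members and 22.5% of all genes had an unadjusted p under 0.05. The ST arrays lay wholly above mock for 1 member and wholly below for 2, where 14.2% of all genes lay above and 15.9% below. At 120 min limma called 0 of 10 members in each comparison with mock, where few of all genes were called: 0.0621% for EcN, 0.559% for ST and 0.732% for both flagellins. At an unadjusted p under 0.05 there were 4 members for EcN, 1 for ST and 3 for both, where 16.5%, 17.6% and 18.7% of all genes were. The members' median log2 fold change was 0.01 for EcN and -0.04 for ST at 60 min, beside 0.01 and 0.00 over all genes.

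**Figure D1:**
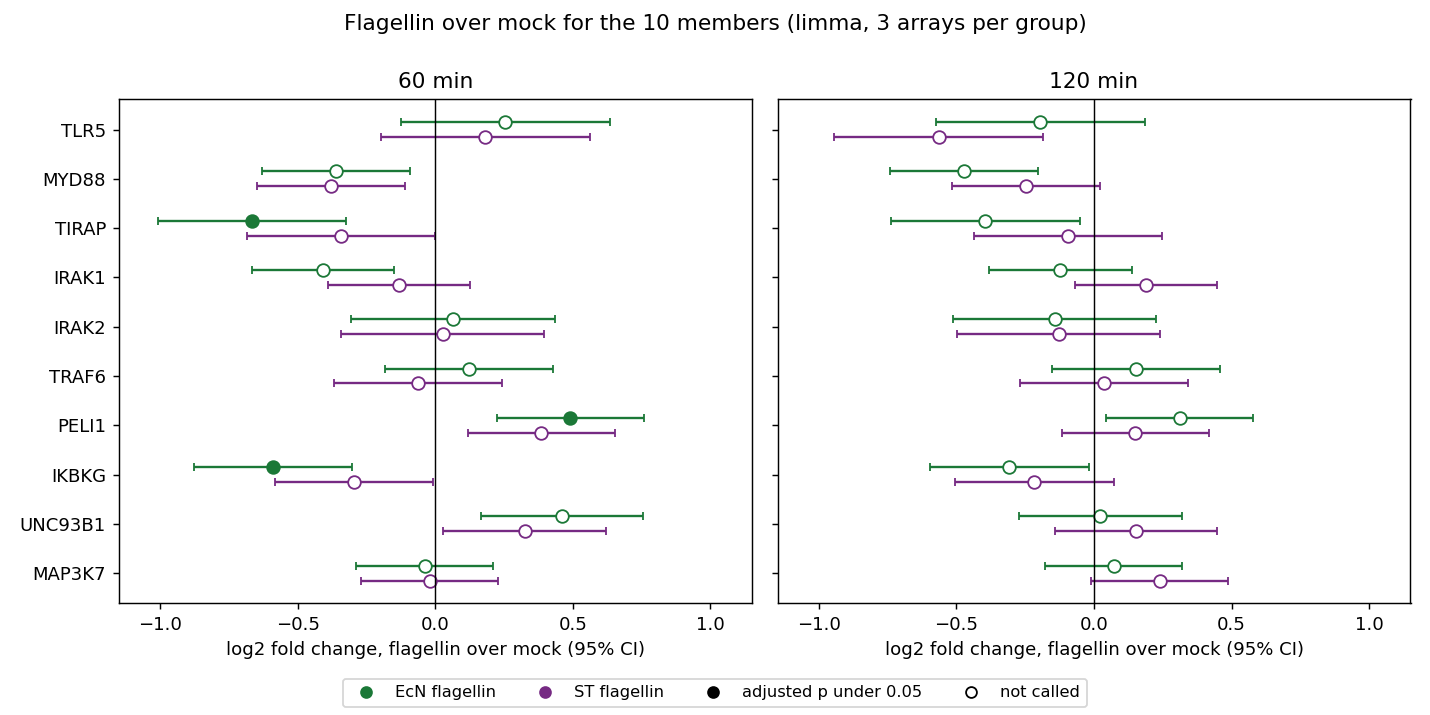
Log2 fold change of each member, EcN (green) or ST (purple) flagellin over mock, at 60 min (left) and 120 min (right), with 95% confidence intervals from limma. Filled points are the 3 calls at an adjusted p under 0.05, all of them EcN at 60 min: PELI1 at 0.49, IKBKG at -0.59 and TIRAP at -0.67.

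Human TLR5 (transcript cluster 16699634) was measured apart from the murine transgene as far as the array's human probes allow, and whether the murine transcript also binds them was not tested. Its log2 level was 3.91, 3.86 and 3.93 on EcN 60 min A, B and C, 3.73, 3.79 and 3.96 on the ST 60 min arrays, and 4.02, 3.60 and 3.32 on the mock 60 min arrays. At 60 min the flagellin arrays lay inside the range of the mock arrays. At 120 min it was 3.78, 4.05 and 3.53 with EcN, 3.17, 3.59 and 3.50 with ST and 3.67, 4.18 and 4.10 in mock, so that every ST array lay below every mock array. For ST over mock at 120 min this held for 1 of 10 members, TLR5, where 7.68% of all genes lay wholly below mock. The ST difference from mock was -0.56 ± 0.18 (log2 fold change ± SE) and did not pass (adjusted p = 0.128). Without mock 120 min A it was called, at -0.72 (adjusted p = 0.0363). That fit called 905 of all genes for ST over mock at 120 min, against 90 with all arrays. The ST effect on TLR5 at 120 min less that at 60 min was -0.75 ± 0.25 (adjusted p = 0.381). The EcN effect changed by -0.45 ± 0.25 (adjusted p = 0.494). No change of an effect between the times was called for any member, in a test that called 0 of all genes for either flagellin, and 1 member had an unadjusted p under 0.05 for each, where 12% of all genes did for EcN and 10.7% for ST.

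UNC93B1 (transcript cluster 16741173) had levels of 5.39, 5.38 and 5.18 with EcN at 60 min, 5.14, 5.12 and 5.29 with ST, and 5.18, 4.66 and 4.74 in mock. The EcN arrays all lay above mock, the lowest of them barely, while mock A reached into the range of the ST arrays. Both flagellins together were higher by 0.39 ± 0.12 (1.31-fold, adjusted p = 0.0488), and the value was 0.34 (adjusted p = 0.272) without the arrays lettered C and mock 120 min A. Leaving out mock 60 min A raised it to 0.55 and leaving out mock 60 min B lowered it to 0.29. The call was lost under 18 of 28 alternatives. At 120 min the levels with EcN (5.00 to 5.20) and mock (4.94 to 5.16) overlapped. UNC93B1 has several annotated pseudogenes, and signal from their transcripts was not separated.

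The adaptor MYD88 (transcript cluster 16939127) stood lower with either flagellin. At 60 min its level was 4.45, 4.76 and 4.55 with EcN, 4.56, 4.62 and 4.52 with ST and 5.00, 4.86 and 4.98 in mock. Each of the 6 flagellin arrays lay below each of the 3 mock arrays, which held for 2 of 10 members (MYD88 and IKBKG), where 9.4% of all genes behaved so. With both flagellins together the log2 fold change was -0.37 ± 0.11 (1.29-fold, adjusted p = 0.043), a call lost under 15 of 28 alternatives, against -0.33 (adjusted p = 0.171) without the arrays lettered C and mock 120 min A. The differences of EcN (-0.36 ± 0.13) and ST (-0.38 ± 0.13) taken alone did not pass (adjusted p = 0.0944 and 0.0899). At 120 min it was 4.28, 4.15 and 4.34 with EcN, 4.69, 4.36 and 4.40 with ST and 5.02, 4.63 and 4.55 in mock. The EcN arrays again lay below all mock arrays, as they did for 2 of 10 members (MYD88 and TIRAP), where 9.11% of all genes did. The difference of -0.47 ± 0.13 did not pass (adjusted p = 0.102), but was called without mock 120 min C, at -0.56 (adjusted p = 0.0244). That fit called 1177 of all genes for EcN over mock at 120 min, against 10 with all arrays.

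MYD88 counts among the genes that interferon can induce, so its promoter is shown beside those of PELI1 and IRAK2, which are described below. RefSeq windows from 250 bases before to 50 bases after the start (GRCh38.p14) were searched on both strands for GAAA repeated after a gap of 2 bases, the core of an interferon response element, and for GGG followed by CC after a gap of 5 bases, a loose NF-kB type motif. Of the members 8 had a window, with 11 windows in all. Capitals mark matches to either motif.
MYD88, chr3:38138411-38138710, plus strand: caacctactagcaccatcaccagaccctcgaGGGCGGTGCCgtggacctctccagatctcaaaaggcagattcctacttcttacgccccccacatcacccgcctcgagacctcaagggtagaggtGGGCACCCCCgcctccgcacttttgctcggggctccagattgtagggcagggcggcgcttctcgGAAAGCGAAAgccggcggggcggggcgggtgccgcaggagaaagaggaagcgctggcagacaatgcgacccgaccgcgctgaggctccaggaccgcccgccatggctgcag
PELI1, chr2:64144371-64144670, minus strand: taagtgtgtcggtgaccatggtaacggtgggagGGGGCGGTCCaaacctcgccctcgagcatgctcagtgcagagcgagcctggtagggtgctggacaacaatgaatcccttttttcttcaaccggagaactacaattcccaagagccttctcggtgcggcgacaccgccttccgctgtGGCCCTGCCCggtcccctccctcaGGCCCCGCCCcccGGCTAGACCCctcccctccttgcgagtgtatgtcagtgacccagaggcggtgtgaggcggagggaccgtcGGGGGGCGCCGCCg
IRAK2, chr3:10164669-10164968, plus strand: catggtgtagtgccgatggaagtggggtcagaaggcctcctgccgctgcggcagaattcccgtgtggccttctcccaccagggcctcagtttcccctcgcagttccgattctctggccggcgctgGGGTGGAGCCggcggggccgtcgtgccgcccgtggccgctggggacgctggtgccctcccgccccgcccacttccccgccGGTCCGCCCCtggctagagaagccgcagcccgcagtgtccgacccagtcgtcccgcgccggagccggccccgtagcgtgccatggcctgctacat
The MYD88 window held GAAAGCGAAA at positions -61 to -52 from the start, the 1 match to the interferon type motif among the 8 members, where 3.57% of 35116 windows held such a match. The NF-kB type motif was found in all 11 member windows and in 58.7% of all windows. In the MYD88 window its 2 places share no base with the interferon type match. At 60 min the interferon-induced gene ISG15 stood at 4.22, 5.91 and 5.79 with EcN, 6.41, 6.50 and 6.62 with ST and 3.17, 3.19 and 3.79 in mock. Limma called ISG15 higher with EcN (adjusted p = 0.0199) and with ST (adjusted p = 0.00532). Neither motif match was tested for function, and an effect of interferon on MYD88 was not tested.

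TIRAP (transcript cluster 16733262) gave the lowest fold change among the members with EcN at 60 min. Its level was 4.25, 4.70 and 4.38 with EcN, 5.10, 4.76 and 4.44 with ST and 5.22, 4.95 and 5.16 in mock. The EcN arrays lay below all mock arrays, and ST A lay among mock. With EcN the log2 fold change was -0.67 ± 0.16 (1.59-fold, adjusted p = 0.0289). Both flagellins together gave -0.50 ± 0.14 (adjusted p = 0.0323). Without the arrays lettered C and mock 120 min A these values were -0.61 (adjusted p = 0.145) and -0.38 (adjusted p = 0.255). The EcN call was lost under 7 of 28 alternatives and that for both flagellins under 9. The 7 include each fit without 1 EcN or mock array of 60 min. At 120 min the level was 4.25, 4.41 and 4.15 with EcN, 4.76, 4.30 and 4.64 with ST, and 4.69, 4.66 and 4.65 in mock, so EcN again lay below mock (-0.39 ± 0.16, adjusted p = 0.232). TIRAP also stood lower in mock itself at 120 min than at 60 min, on all 3 arrays, by a difference of -0.44 ± 0.16 that did not pass (adjusted p = 0.318). TIRAP was the 1 member of 10 wholly lower in that comparison, where 7.04% of all genes were. Limma called 0 of all genes in it, and 3 members and 12.1% of all genes had an unadjusted p under 0.05.

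**Figure D2:**
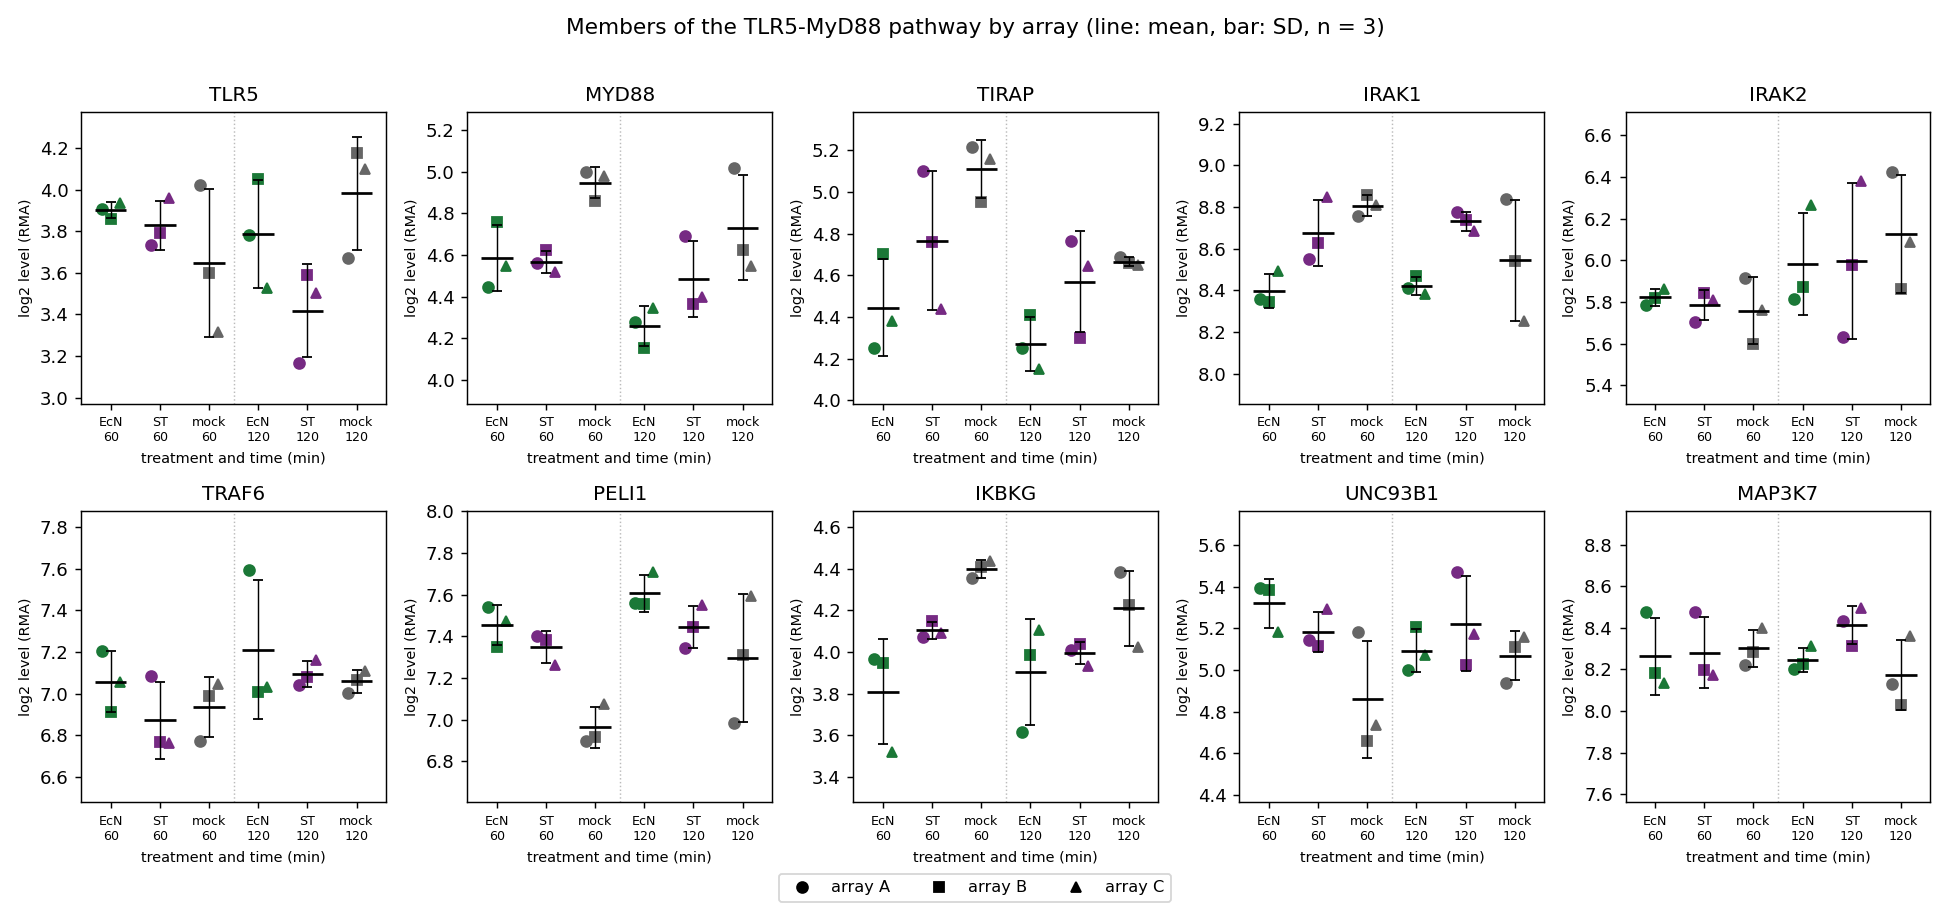
Log2 level (RMA) of each member on the 18 arrays, grouped by treatment (EcN green, ST purple, mock grey) at 60 and then 120 min. Symbols give the array letter, lines the mean and bars the SD of 3 arrays. Every panel spans 1.4 log2 units. At 60 min all 6 flagellin arrays of PELI1 lie above mock, and all 6 of MYD88 and IKBKG below it.

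Of the kinases, IRAK1 (transcript cluster 17115428), which is phosphorylated in the complex with MyD88, stood higher with ST than with EcN flagellin. At 60 min its level was 8.36, 8.34 and 8.49 with EcN, 8.55, 8.63 and 8.85 with ST, and 8.76, 8.86 and 8.81 in mock. At 120 min it was 8.41, 8.47 and 8.38 with EcN, 8.77, 8.74 and 8.68 with ST, and 8.84, 8.54 and 8.25 in mock. The ST arrays lay above the EcN arrays at both times, by 0.28 ± 0.12 at 60 min (95% interval 0.02 to 0.54, adjusted p = 0.506) and by 0.31 ± 0.12 at 120 min (interval 0.05 to 0.57, adjusted p = 0.346), and neither difference passed. At 60 min the ST arrays lay wholly above EcN for 2 of 10 members, IRAK1 and IKBKG, where 8.14% of all genes did. At 120 min they lay wholly above for MYD88, IRAK1 and MAP3K7 and wholly below for PELI1, which is 3 and 1 of 10 members, where 10.5% of all genes lay above and 10.4% below. Limma called 0 of all genes between ST and EcN at either time, with 2 members at 60 min and 1 at 120 min at an unadjusted p under 0.05, where 9.19% and 11.7% of all genes were. EcN over mock at 60 min gave IRAK1 -0.41 ± 0.12, with every EcN array below mock (adjusted p = 0.0551). It passed under 6 alternatives, with an adjusted p of 0.0141 with array weights. The fit with array weights called 2176 of all genes for EcN over mock at 60 min, against 1039 without them.

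IRAK2 (transcript cluster 16937579), a kinase that prolongs signalling after the first response, was high at 120 min on the arrays with high NFKBIA. At 60 min it was 5.79, 5.82 and 5.86 with EcN, 5.70, 5.84 and 5.81 with ST, and 5.92, 5.60 and 5.76 in mock. EcN C and ST C, the arrays with high NFKBIA at this time, stood no higher than mock A. At 120 min it was 5.81, 5.87 and 6.26 with EcN, 5.63, 5.98 and 6.38 with ST, and 6.42, 5.86 and 6.09 in mock. In each of these 3 groups the array with high NFKBIA had the highest IRAK2, and mock C came next at 6.09 with a low NFKBIA of 8.22. Between the labelled groups IRAK2 was not called, with differences at 120 min of -0.14 ± 0.17 for EcN and -0.13 ± 0.17 for ST over mock. Mock at 120 min over mock at 60 min gave 0.37 ± 0.17 (adjusted p = 0.417). The tested genes with the most similar pattern over the 18 arrays were REL, an NF-kB subunit (Pearson r = 0.849), and the chemokines CXCL3 (r = 0.835) and CXCL10 (r = 0.834). These correlations rest on arrays that fall apart by NFKBIA and are given as a description.

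**Figure D3:**
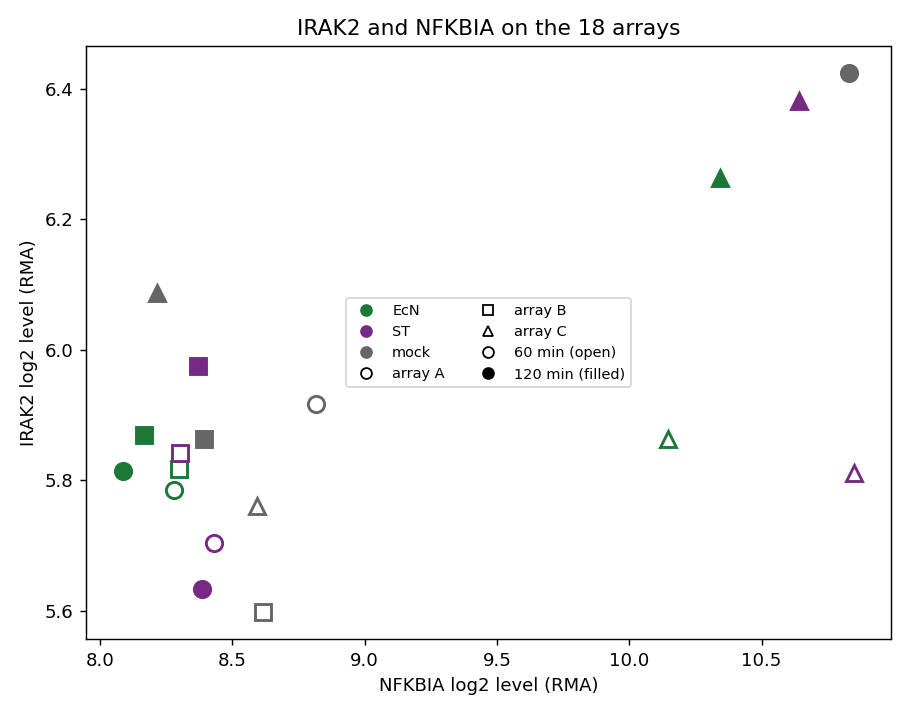
IRAK2 against NFKBIA, both as log2 levels (RMA), on the 18 arrays (EcN green, ST purple, mock grey; open 60 min, filled 120 min; symbol by letter). Of the 5 arrays with NFKBIA above 10, the 3 at 120 min have IRAK2 from 6.26 to 6.42, and the 2 at 60 min have 5.81 and 5.86.

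The ubiquitin ligase TRAF6 (transcript cluster 16737401) and the TAK1 gene MAP3K7 (transcript cluster 17021754) showed no call. TRAF6 ranged from 6.76 on ST 60 min C to 7.60 on EcN 120 min A, where B and C of that group had 7.01 and 7.03. MAP3K7 had the smallest range of the members, 0.46 log2 units, from 8.03 on mock 120 min B to 8.49 on ST 120 min C. With both flagellins at 60 min the differences from mock were 0.03 ± 0.12 for TRAF6 (95% interval -0.24 to 0.29) and -0.03 ± 0.10 for MAP3K7 (interval -0.24 to 0.19). At 120 min MAP3K7 was 8.43, 8.31 and 8.49 with ST and 8.13, 8.03 and 8.36 in mock, and the difference of 0.24 ± 0.12 did not pass (adjusted p = 0.308).

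PELI1 (transcript cluster 16898326) rose. At 60 min its level was 7.54, 7.35 and 7.47 with EcN, 7.40, 7.38 and 7.26 with ST, and 6.90, 6.92 and 7.08 in mock. All 6 flagellin arrays lay above all mock arrays, which held for 1 of 10 members, where 8.22% of all genes behaved so. EcN raised it by 0.49 ± 0.13 (1.41-fold, adjusted p = 0.0344) and both flagellins together by 0.44 ± 0.11 (adjusted p = 0.0214). The call for both flagellins held under 25 of 28 alternatives. The 3 that lost it were those leaving out mock 60 min A, B or C alone. The EcN call was lost under 6 of 28, each of them leaving out 1 EcN or mock array of 60 min. ST alone gave 0.39 ± 0.13 (adjusted p = 0.0835). Without the arrays lettered C and mock 120 min A, PELI1 was the 1 member still called, at 0.54 for EcN (adjusted p = 0.0398) and 0.51 for both flagellins (adjusted p = 0.0262). At 120 min it was 7.56, 7.55 and 7.71 with EcN, 7.35, 7.44 and 7.55 with ST, and 6.98, 7.31 and 7.59 in mock, so the groups overlapped. Mock C alone reached the flagellin arrays. Without it the EcN difference at 120 min was called, at 0.46 (adjusted p = 0.0286), in a fit that called 1177 of all genes against 10 with all arrays. Mock itself at 120 min over mock at 60 min gave 0.33 ± 0.13 for PELI1 (adjusted p = 0.33). Without mock 120 min A that difference was called too, at 0.49 (adjusted p = 0.0209), which is as large as the EcN difference from mock at 60 min. In that fit 979 of all genes were called between the mock groups, against 0 with all arrays. The closest patterns over the 18 arrays were those of SAMD8 (r = 0.913), TIMELESS (r = 0.901) and HIBADH (r = 0.894).

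IKBKG (transcript cluster 17108468) moved the other way. At 60 min its level was 3.97, 3.95 and 3.52 with EcN, 4.07, 4.15 and 4.09 with ST, and 4.35, 4.41 and 4.44 in mock. No flagellin array reached mock, and EcN C was the lowest of the 18. The log2 fold change was -0.59 ± 0.14 with EcN (1.5-fold, adjusted p = 0.025) and with both flagellins -0.44 ± 0.12 (adjusted p = 0.0279). Without the arrays lettered C and mock 120 min A these were -0.42 (adjusted p = 0.113) and -0.35 (adjusted p = 0.116). The EcN call was lost under 5 of 28 alternatives and that for both flagellins under 6. At 120 min it was 3.62, 3.99 and 4.11 with EcN, 4.01, 4.04 and 3.94 with ST and 4.38, 4.23 and 4.02 in mock, and neither difference passed. The pseudogene IKBKGP1 is a near copy of part of IKBKG, and its transcripts were not separated.

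The number of calls at 60 min changed with the arrays used, over the members and over all genes alike. The 3 member calls for EcN became 0 without EcN 60 min B, EcN 60 min C, mock 60 min B or mock 60 min C, fits in which 0, 81, 7 and 3 of all 16111 genes were called, against 1039 with all arrays. They became 1 without EcN 60 min A (241 genes), 2 without mock 60 min A (671 genes) and 6 without mock 120 min A (1856 genes). With 1 of these EcN or mock 60 min arrays left out, the log2 fold change for EcN was 0.45 to 0.55 for PELI1, -0.67 to -0.44 for IKBKG and -0.79 to -0.57 for TIRAP. The size of these changes thus moved less than the count of calls.

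The 5 calls for both flagellins became 0 without mock 60 min B or C, fits in which 432 and 352 genes were called, against 1657 with all arrays. They became 1 without mock 60 min A or EcN 60 min C (1167 and 1136 genes), 2 without EcN 60 min A or ST 60 min A, B or C (1136 to 1426 genes), and 3 without EcN 120 min A, B or C (1430 to 1485 genes). In all these fits the called values kept their direction.

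The mock arrays at 120 min were not alike in these genes. On mock 120 min A the levels of 6 members (TLR5, IRAK1, TRAF6, PELI1, IKBKG and UNC93B1) lay within the range of the 3 mock 60 min arrays, against 2 members each on mock 120 min B and C. Over all genes this share was 49.5% on mock 120 min A, 36.6% on B and 34.7% on C, and between 33.9% and 39.6% on the flagellin arrays, which had 2 to 4 members within the range. This count was chosen after the values were seen. Mock 120 min A thus had mock 60 min levels of PELI1, IKBKG and IRAK1 together with an NFKBIA level of 10.83, a measure whose part in the 120 min comparisons was not tested beyond leaving the array out.

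**Figure D4:**
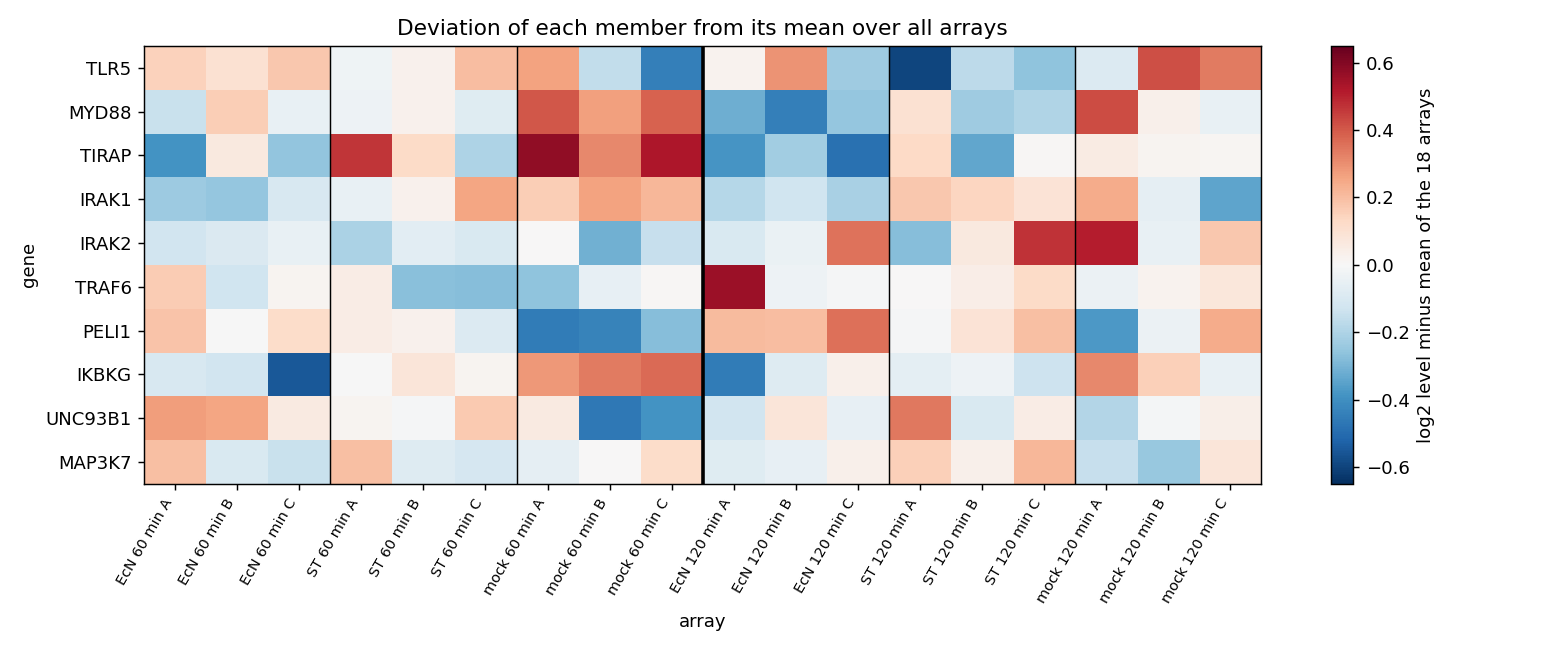
Log2 level of each member (rows) on each array (columns) minus its mean over the 18 arrays. Red is above and blue below the mean, the thick line parts 60 from 120 min. The 3 mock 60 min arrays are high in MYD88, TIRAP, IRAK1 and IKBKG and low in PELI1, and mock 120 min A departs the same way, least in TIRAP.

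Some genes of the rest of the pathway were called, each given here for the fit to all arrays only. Of all genes tested at 60 min limma called 3.08% higher and 3.37% lower for EcN, and 5.26% for ST. For both flagellins it called 4.53% higher and 5.75% lower. Of 6 tested kinases and ubiquitin ligases of the MyD88 branch, PELI3, a relative of PELI1, was called with ST at 60 min, at 5.61 to 6.004 with ST against 4.95 to 5.59 in mock (0.64 ± 0.18, adjusted p = 0.0453). PELI3 was not called with EcN (adjusted p = 0.249) or with both flagellins (adjusted p = 0.0516). Of 5 tested genes of the MAP kinase arm, MAP2K6, which activates p38, was called with ST at 60 min (0.46 ± 0.13, adjusted p = 0.0476) and with both flagellins (0.40 ± 0.11). With EcN alone MAP2K6 was not called (adjusted p = 0.109). Of 10 inhibitors of the pathway, limma called 0 with EcN or ST alone at 60 min, with 2 at an unadjusted p under 0.05 for each, and 2 with both together. These were IRAK1BP1, which binds IRAK1, at -0.42 ± 0.11 (adjusted p = 0.0296) and TRAFD1, a TRAF-type zinc finger protein that restrains signalling, at -0.32 ± 0.09 (adjusted p = 0.0365). Both stood lower on all 6 flagellin arrays than on all mock arrays, IRAK1BP1 at 5.87 to 6.21 against 6.33 to 6.46. This held for 2 of the 10 inhibitors, where 9.4% of all genes behaved so. Limma called 0 of 6 other genes of the TAK1 and IKK complexes, 0 of 4 toll-like receptors and cofactors and 0 of 1 other adaptor in any of 11 comparisons, with 2 of the 6 at an unadjusted p under 0.05 for both flagellins at 60 min.

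Markers moved with the members at 60 min. Of 5 housekeeping and ribosomal genes B2M and RPS6 rose with either flagellin, HPRT1 fell with both together, and the median log2 fold change was -0.20 for EcN and -0.14 for ST. For each flagellin 2 of the 5 lay wholly above mock and 2 wholly below. Of all genes 16.7% lay above and 15.2% below for EcN, and 14.2% above and 15.9% below for ST. The summed linear level of the 5 overlapped between EcN (782.2 to 880.7), ST (811.0 to 851.9) and mock (838.6 to 887.5). Of the 7 HEK293 markers ENO2 and KRT18 rose with EcN and KRT18 with ST. For EcN 3 of the 7 lay wholly above mock and 2 wholly below, and for ST 4 above and 1 below. The sum was 1809.4 to 1949.7 with EcN, 1724.0 to 1925.4 with ST and 1481.2 to 1737.4 in mock. The EcN arrays lay wholly above mock in this sum. NEFL, at a log2 level of 9.90 to 10.65, was the highest of the 7 and weighs most in it.

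Of the 4 intestinal epithelial genes LGR5 fell with EcN, and the sum was 648.9 to 740.2 with EcN, 733.0 to 812.3 with ST and 847.2 to 857.0 in mock, so every flagellin array lay below mock. The sum of the 5 leukocyte genes with a row, almost wholly the level of CD68, was 655.7 to 705.2 with EcN, 615.0 to 688.2 with ST and 487.8 to 610.5 in mock. CD68, the 1 of them that passed the filter, rose with EcN and with both flagellins. The sum of the 4 fibroblast genes with a row was 85.3 to 109.5 with EcN, 62.2 to 66.6 with ST and 74.5 to 95 in mock, with no call at 60 min. The part of these genes in the members' changes was not tested.

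The genes whose patterns came nearest to MYD88 were MARVELD2 (r = 0.894), MAGEF1 (r = 0.881) and SPRYD4 (r = 0.878). For TIRAP they were SPIN4 (r = 0.842), FAIM and TXNDC11, and for IKBKG ARV1 (r = 0.876), TMEM237 and SCYL2. TLR5 was nearest to WDR27 (r = 0.857), CNTNAP1 and BTBD8, and UNC93B1 to MICB (r = 0.835), PSAP and ZNF274. IRAK1 was nearest to TOB2P1 (r = 0.926), RPP40 and EIF2B2, TRAF6 to TNS4 (r = 0.846), UBE2V2 and PSAT1, and MAP3K7 to PPIG (r = 0.863), SEH1L and COPS2. No member was among the 3 nearest genes of another. Each r is over the same 18 arrays, which share group differences and normalization, and is given as a description.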

How the data were processed

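Expression was measured on 18 arrays in 6 groups of 3. The deposited values are log2 levels, 1 for each of 53617 transcript clusters, which the authors made by RMA. The submitters' processing notes name oligo 1.30.0. Array medians lay between 2.27 and 2.32, and no pair of arrays was identical. Values were used as deposited. Rows were named through the platform annotation, with symbols updated in RefSeq's gene table of GRCh38.p14 (655 changed): 23871 rows had 1 symbol, 1842 several and 27904 none. Rows with 1 symbol above their array's median on at least 3 arrays were kept, and the row with the highest mean stood for its gene.

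Comparisons used limma 3.58.1 (lmFit, eBayes; R 4.3.3), with 6 group means fitted to all arrays (12 residual and 4.2 prior degrees of freedom) and no pairing by letter, two-sided, adjusted over 16111 genes. The number of arrays limits the precision. The method was tested on simulated data. The members, lists and rule for named genes (all members, other pathway genes where called, the 3 nearest patterns) were chosen with earlier results of these data known. The alternatives were no and stricter filters, trend and robust settings, array weights, median centring, quantile normalization, the letter as a block, the compared groups alone, the mean of a gene's rows, and leaving out arrays. Promoter windows came from RefSeq. TIRAP and UNC93B1 had none there.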

Additional observations from a re-analysis of the deposited data

How the results depend on the processing

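The direction of all 8 calls held under all 28 alternatives. Of the 110 values (10 members in 11 comparisons), a sign changed in 60 of 3080 refits, none of them a called value and none larger than 0.181 in log2 fold change. Members called for EcN at 60 min numbered 3, or 5 with the stricter filter and with array weights, and 1 without the arrays lettered C and mock 120 min A. Those for both flagellins at 60 min numbered 5, or 3 with no filter, with the compared groups alone and with the letter as a replicate block, and 1 without the arrays lettered C and mock 120 min A. Those for ST at 60 min numbered 0, or 2 (MYD88 and PELI1) with array weights. The counts over all genes in these fits moved as well. For EcN they were 1491 with the stricter filter and 2176 with array weights, against 1039. For both flagellins they were 1327 with no filter, 2046 with the compared groups alone and 1409 with the replicate block, against 1657. For ST with array weights the count was 1957, against 848. Leaving out 1 array at a time gave 0 to 6 members for EcN and for both flagellins at 60 min, 0 to 2 for ST at 60 min, 0 to 2 for EcN, 0 to 1 for ST and 0 to 2 for both flagellins at 120 min, and 0 to 2 for mock 120 over mock 60 min. The cause was not tested. Counts over all genes ranged over the alternatives from 0 to 2176 for EcN (1039 as reported), 79 to 1957 for ST (848) and 352 to 2793 for both flagellins (1657) at 60 min. At 120 min they ranged from 0 to 1177 for EcN (10), 0 to 905 for ST (90) and 0 to 1247 for both flagellins (118). The other 5 comparisons, with 0 genes called, reached 1 and 34 for ST over EcN at 60 and 120 min, 979 for mock and 556 and 475 for the change of the EcN and ST effects. Over all genes the letters paired the arrays at most weakly. Deviations from the group means correlated at -0.237 to 0.273 over the 45 pairs of the same letter, above 0.1 in 10. Their median was 0.044, against -0.017 for pairs of other letters, and 9 of 18 arrays were closest to their own letter. Yet NFKBIA, TNFAIP3 and CXCL8 were high on the array lettered C of each flagellin group, so a shared part of the letter remains possible. With the replicate block MYD88 (adjusted p = 0.0523) and UNC93B1 (adjusted p = 0.0631) lost their calls, and no other member's call changed.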
